A study of Homo sapiens with 48 samples.

Results

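The 9 genes described here encode surface ligands through which a B cell engages T cells and other lymphocytes: CD80, CD86, CD58, ICAM1, ICAM2, ICAM3, ICOSLG (ICOS ligand), CD274 (PD-L1) and PDCD1LG2 (PD-L2). They were taken by name from the 37706 genes of the deposited count table, with earlier results of these data known, and each had its own row. Messenger RNA was sequenced from 4 established human GCB-DLBCL lines, that is, germinal centre type diffuse large B cell lymphomas: SUDHL6, Oci-Ly7, Oci-Ly8 and also Oci-Ly18. Each line was grown with the solvent DMSO, with EPZ-5676, which inhibits DOT1L (DOT1Li), with GSK343, which inhibits EZH2 (EZH2i), or with both compounds (Combo). Treatment lasted 6 days, with reseeding at day 3, and each of the 16 groups had 3 libraries, 48 in all. Lines are named as the sample labels give them, and the growth protocol lists Oci-Ly8 in the place where Oci-Ly7 would stand. Each line is a single established cell line and the labels give no inhibitor dose. Nothing in the labels says that the 3 libraries of a group came from separate cultures, so p-values measure the spread between these libraries, which may be technical.

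T cell activation needs antigen presentation together with costimulatory contact. CD80 and CD86 are ligands of the receptors CD28 and CTLA-4 on T cells, ICOSLG binds ICOS, and CD58 binds CD2 on T cells and natural killer cells. ICAM1, ICAM2 and ICAM3 bind the integrin LFA-1 and hold the immune synapse together, while PD-L1 and PD-L2 bind the inhibitory receptor PD-1. EZH2 is the catalytic subunit of a complex that places a repressive methyl mark on histone H3, and DOT1L places a methyl mark on H3 in the bodies of transcribed genes. Loss of CD58 and of other ligands from the surface is known in lymphomas of this type.

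The stretches just upstream of 4 members are shown because CD86 moved furthest, CD274 and ICAM1 are textbook targets of interferon signalling, and the CD58 stretch is rich in G and C where that of CD86 is poor. Each is the 250 bases before the RefSeq gene start in GRCh38.p14, read 5′ to 3′ on the strand of the gene, and capitals mark matches to the motifs searched. For CD274, CD58 and ICAM1 the RefSeq start lies inside the gene bounds given further below, so the end of each stretch does too. CD86 lies at chr3:122055112-122055361 on the plus strand, CD274 at chr9:5450292-5450541 on the plus strand, CD58 at chr1:116571027-116571276 on the minus strand and ICAM1 at chr19:10270870-10271119 on the plus strand.
CD86: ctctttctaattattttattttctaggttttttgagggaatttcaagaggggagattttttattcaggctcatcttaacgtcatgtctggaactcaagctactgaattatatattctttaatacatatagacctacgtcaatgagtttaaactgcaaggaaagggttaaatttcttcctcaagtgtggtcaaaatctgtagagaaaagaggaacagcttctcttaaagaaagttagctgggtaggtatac
CD274: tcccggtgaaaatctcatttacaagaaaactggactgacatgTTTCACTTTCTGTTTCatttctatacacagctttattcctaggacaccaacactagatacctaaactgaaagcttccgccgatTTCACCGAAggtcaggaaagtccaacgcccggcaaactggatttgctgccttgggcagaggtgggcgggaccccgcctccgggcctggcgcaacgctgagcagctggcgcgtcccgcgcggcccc
CD58: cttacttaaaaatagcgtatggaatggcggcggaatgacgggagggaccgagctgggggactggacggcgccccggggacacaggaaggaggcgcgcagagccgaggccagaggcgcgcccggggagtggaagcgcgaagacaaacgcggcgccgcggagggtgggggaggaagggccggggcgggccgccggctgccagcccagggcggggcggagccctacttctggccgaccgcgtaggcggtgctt
ICAM1: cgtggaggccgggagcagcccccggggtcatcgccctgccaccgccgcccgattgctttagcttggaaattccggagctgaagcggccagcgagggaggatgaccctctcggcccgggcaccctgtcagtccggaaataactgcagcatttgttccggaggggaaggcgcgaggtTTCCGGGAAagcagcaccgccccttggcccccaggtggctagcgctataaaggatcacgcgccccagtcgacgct

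The motifs searched on both strands were the interferon-gamma site TTCNNNGAA, the interferon response element GAAANNGAAA and the NF-kB motif. The NF-kB motif was searched only in a form that opens with GGG, so NF-kB sites of another form were not counted. The CD86 stretch held none of the 3, with 2 CpG dinucleotides and a GC content of 34%, against medians of 11 CpG and 58.0% over 35116 such stretches. In CD274, 2 overlapping response elements on the minus strand covered positions 208 to 199 and 202 to 193 before the start, and an interferon-gamma site covered positions 125 to 117. ICAM1 held an interferon-gamma site at positions 75 to 67, with 23 CpG. CD58 held no motif, with 31 CpG and 72% GC. Among the other members, ICAM3 held an NF-kB motif at positions 56 to 47. Of all stretches, 6.57% held the interferon-gamma site, 3.02% the response element and 9.96% the NF-kB motif. A match describes these letters only. RefSeq stretches were matched for 7 of the 9 genes, all but ICAM2 and PDCD1LG2.

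Library totals ran from 5174269 to 18845074 counts (median 14499937). The lowest total belonged to Oci-Ly8 DOT1Li replicate 3, and the second lowest was 11391942. The former library and Oci-Ly8 DMSO replicate 3 stood apart in being poor in long transcripts: the slope of expression on transcript length was -0.14 and -0.16 in them and 0.066 or more in the other 46. The B cell markers CD79A, CD79B, MS4A1, PAX5 and CD22 had counts in every library, as did the germinal centre markers BCL6, MYBL1 and MME, while SERPINA9 was at 0 in 33 libraries. In bulk RNA, fewer cells that express a gene and less RNA per cell cannot be told apart. In the text below, CPM is a gene's count per 1000000 counts of its library. A gene was called changed at a Benjamini-Hochberg adjusted p under 0.05 in edgeR's quasi-likelihood test over 17749 genes. Of the 9 members, 8 passed the filter on low counts. PDCD1LG2 did not, with 3 counts over all 48 libraries, 1 each in SUDHL6 DMSO replicate 3, DOT1Li replicate 2 and Combo replicate 1.

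Without inhibitor, the 4 lines carried different sets of ligands. All 8 members tested differed between lines in DMSO, a background of 93.1% of all genes tested. Per kilobase of exon, CD86 was at 16.1 CPM in Oci-Ly8 and 13.5 in Oci-Ly7 but at 0.314 in SUDHL6 and 0.0804 in Oci-Ly18. In SUDHL6, CD58 at 13.1 and ICAM1 at 11 were the most abundant members on this scale, in Oci-Ly8 CD86 was followed by ICAM3 at 13.2, and in Oci-Ly7 by ICAM2 at 11.6. CD274 was highest in SUDHL6, at 1.49.

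**Figure D1:**
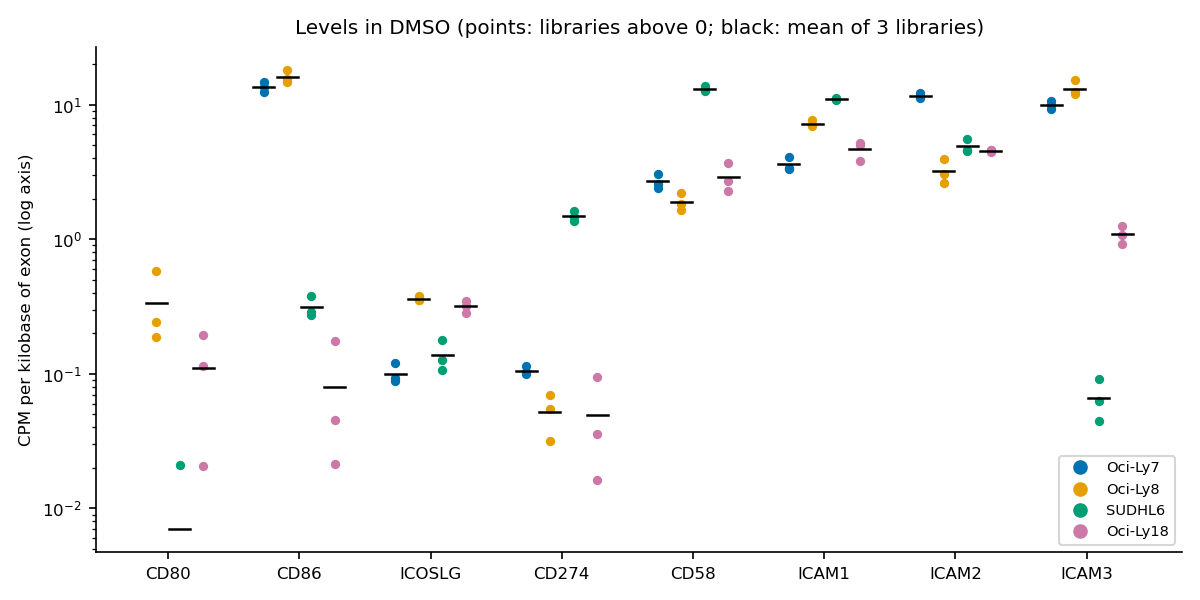
Levels in DMSO libraries in CPM per kilobase of exon, on a log axis, by gene and line. Each point is 1 library and libraries at 0 are not drawn. CD86 stood at 16.1 and 13.5 in Oci-Ly8 and Oci-Ly7 but at 0.314 and 0.0804 in SUDHL6 and Oci-Ly18.

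Ordered by mean CPM, all neighbouring lines differed for CD86, ICAM1 and ICAM3. For CD86 the order was Oci-Ly8, Oci-Ly7, SUDHL6, Oci-Ly18. For ICAM3, Oci-Ly8 at 38.8 and Oci-Ly7 at 29.3 CPM stood far above Oci-Ly18 at 3.21 and SUDHL6 at 0.195. ICAM1 ran from SUDHL6 at 40.7 CPM through Oci-Ly8 and Oci-Ly18 to Oci-Ly7 at 13.3. Several neighbours did not differ beyond their spread: Oci-Ly18 and Oci-Ly7 for CD58 (adjusted p = 0.417), SUDHL6 and Oci-Ly18 for ICAM2 (adjusted p = 0.821), and Oci-Ly8 and Oci-Ly18 for ICOSLG (adjusted p = 0.399). The same held for SUDHL6 and Oci-Ly7 for ICOSLG (adjusted p = 0.360) and for CD80 (adjusted p = 0.418), and for Oci-Ly7, Oci-Ly8 and Oci-Ly18 for CD274 (adjusted p = 0.126 and 0.862 between neighbours).

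Averaged over the 4 lines, the combination called most of the ligands and DOT1L inhibition the fewest. With DOT1Li, 1 member was called, ICOSLG, which rose, against 10.3% of all genes. EZH2i called 5 members against 28.2%: CD80, CD58, ICAM3 and CD274 rose and ICAM1 fell. In Combo, 7 members were called against 46.4%: CD80, CD86, CD58, ICOSLG and CD274 rose, ICAM1 and ICAM2 fell, and ICAM3 had a log2 change of 0.37 (adjusted p = 0.0880). ICAM3 was called as well, making 8 members, by DESeq2 (0.39, adjusted p = 0.0391), with the replicate number as a block (0.38, adjusted p = 0.0288) and without both Oci-Ly8 libraries poor in long transcripts (0.41, adjusted p = 0.0390). The median log2 change of the 8 members was 0.24, 0.29 and 0.66 in the 3 comparisons, beside 0.011, 0.030 and 0.078 over all genes tested. These comparisons share their DMSO libraries.

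For some members, such as CD86, the averages covered opposite changes in different lines. The change itself differed between lines for 2 members with DOT1Li (5.14% of all genes), for 5 with EZH2i (24%) and for 6 in Combo (43.8%). With DOT1Li, Oci-Ly7 had 1 call, a fall (2.90% of all genes called in that line), and SUDHL6 had 1, a rise (4.86%). Oci-Ly18 had 2 DOT1Li calls, 1 rise and 1 fall (6.15%). Oci-Ly8 had 0 by edgeR (6.26%), with 1 member at an unadjusted p under 0.05 and 0 called by DESeq2. With EZH2i, Oci-Ly7 had 0 calls by edgeR (13.7%), with 2 members at an unadjusted p under 0.05 and 1 called by DESeq2. Oci-Ly8 had 1 rise and 2 falls with EZH2i (17%), SUDHL6 4 rises and 1 fall (22.7%), and Oci-Ly18 4 rises (22%). In Combo, Oci-Ly7 had 2 rises and 2 falls (29.8%), Oci-Ly8 2 rises and 3 falls (35%), SUDHL6 3 rises and 1 fall (39.3%), and Oci-Ly18 5 rises and 1 fall (35%). In this fit the share of calls in Combo among the 8 members tested was above that of all genes in each of the 4 lines. Those counts are small and moved when 1 library was left out, to between 3 and 6 in Oci-Ly8 and between 2 and 6 in Oci-Ly18.

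**Figure D2:**
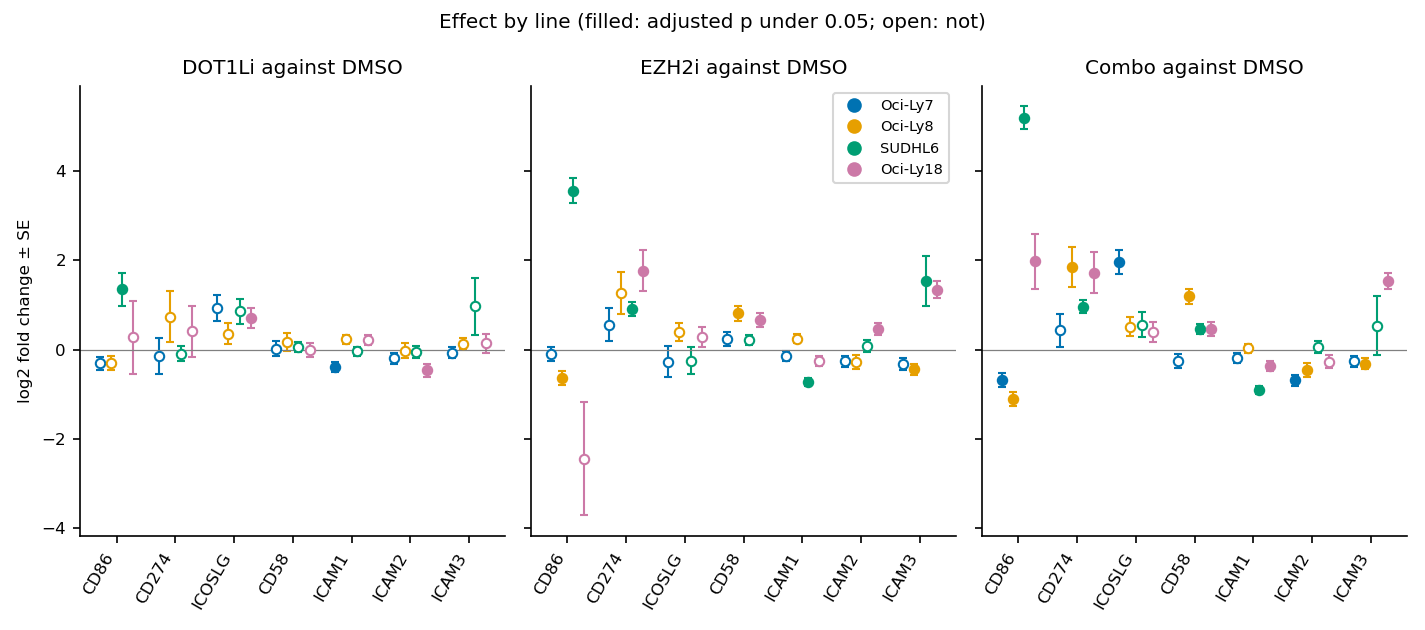
Log2 fold change against DMSO (points, bars are the standard error of the fit) for 7 members in each line and treatment. Filled points have an adjusted p under 0.05. CD86 in SUDHL6 reached 5.20 in Combo, while it was at -0.69 in Oci-Ly7 and -1.10 in Oci-Ly8.

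CD86, located at chr3:122055362-122121139 on the plus strand, showed the largest change of any member, and it went in opposite directions in different lines. In SUDHL6 the DMSO libraries had 0.992, 1.30 and 0.939 CPM (15, 21 and 14 counts) and the DOT1Li libraries 3.31, 3.09 and 2.29. With EZH2i they had 13.2, 17.8 and 9.01 CPM, and in Combo 41.3, 51.3 and 37.7 CPM (666, 741 and 542 counts). No libraries of any 2 of the 4 groups overlapped, and the order was DMSO, DOT1Li, EZH2i, Combo. The log2 change was 1.34 ± 0.37 (SE, n = 3 per group, edgeR adjusted p = 0.0260) with DOT1Li, 3.55 ± 0.28 (edgeR adjusted p = 1.36e-12) with EZH2i and 5.20 ± 0.25 (edgeR adjusted p = 9.77e-20) in Combo. As ratios of mean CPM these were 2.69-, 12.4- and 40.3-fold. Combo was above EZH2i by 1.64 ± 0.17 and above DOT1Li by 3.85 ± 0.22 in log2 units (edgeR adjusted p = 7.81e-09 and 4.74e-17). The DOT1Li call in SUDHL6 was lost without DMSO replicate 1 or 3 or without DOT1Li replicate 1 or 2, with adjusted p from 0.0939 to 0.112 and log2 changes from 1.25 to 1.29. It was also lost when SUDHL6 was fitted alone (adjusted p = 0.0606).

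Markers of other cell types were read in the same SUDHL6 libraries. Of 9 myeloid or dendritic cell markers, 2 were at 0 in all DMSO libraries and 1 in all Combo libraries. Their summed level was 18.7 to 20.7 CPM in DMSO and 20.4 to 23.6 in Combo. Over the 48 libraries of the series, CD68 and CLEC10A were each at 0 in 46. LYZ, ITGAM and LAMP3 were at 0 in 10, 4 and 9 of them and reached 20.3, 5.79 and 5.40 CPM. Of 5 fibroblast or endothelial markers, 1 was at 0 in DMSO and 0 were in Combo, and their sum was higher where CD86 was, at 8.98 to 10.3 CPM in DMSO and 26.7 to 35.5 in Combo. The sum of 6 T cell markers was at most 12.7 CPM in DMSO and up to 21.9 in Combo, without overlap. That of 4 natural killer cell markers was 2.91 to 4.02 CPM in DMSO and 6.33 to 7.93 in Combo. The sum of 6 B cell markers was higher as well, at 1294 to 1373 CPM in DMSO and 2012 to 2063 in Combo. Sums of germinal centre, plasma cell and epithelial markers overlapped between DMSO and Combo. The part of these marker differences in the CD86 change was not tested.

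**Figure D3:**
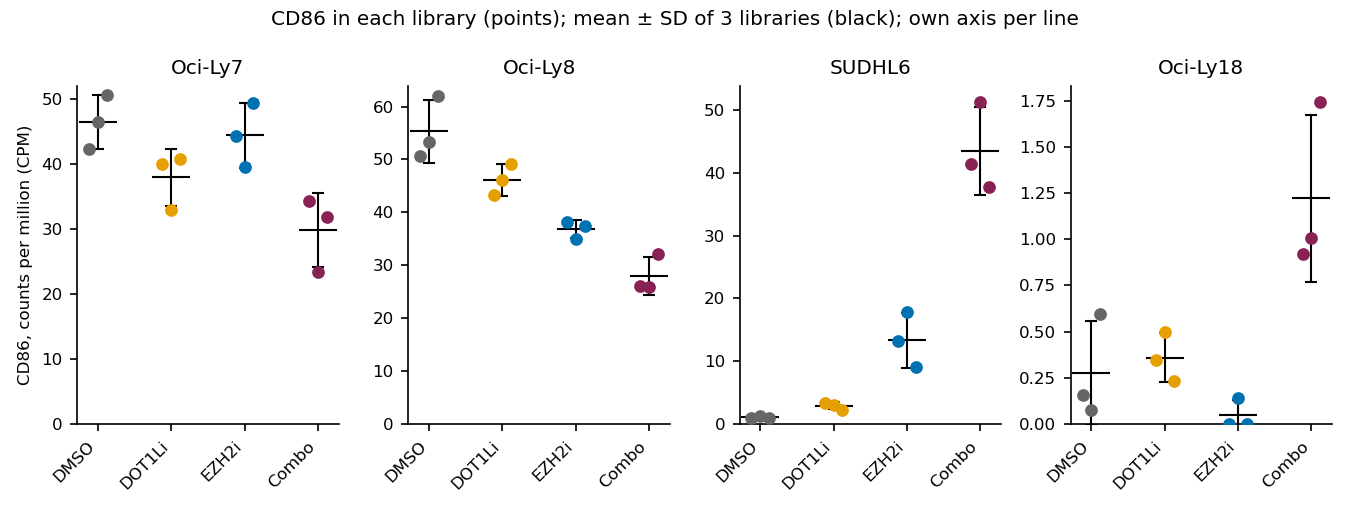
CD86 in CPM in each library (points) with the group mean and SD, 1 panel per line, each with its own linear axis from 0. SUDHL6 rose from about 1 CPM in DMSO to between 37.7 and 51.3 in Combo, while Oci-Ly8 fell from between 50.6 and 62.0 to between 25.9 and 32.2.

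In the lines that expressed CD86 most, the change went the other way. In Oci-Ly8 the DMSO libraries had 50.6, 53.3 and 62.0 CPM, the DOT1Li libraries 43.2, 46.1 and 49.1, the EZH2i libraries 38.1, 35 and 37.5 and the Combo libraries 26.1, 25.9 and 32.2. All 3 treated groups lay below DMSO, and the log2 change was -0.64 ± 0.15 with EZH2i (edgeR adjusted p = 0.00267) and -1.10 ± 0.16 in Combo (edgeR adjusted p = 5.12e-07). With DOT1Li it was -0.30 ± 0.16 (adjusted p = 0.298), which did not pass the test. In Oci-Ly7, DMSO libraries had 42.4, 46.4 and 50.7 CPM, DOT1Li 40.1, 33 and 40.9, EZH2i 44.4, 39.5 and 49.5 and Combo 34.4, 23.4 and 31.8. Combo lay below DMSO in Oci-Ly7, by -0.69 ± 0.15 (edgeR adjusted p = 0.000518), while EZH2i overlapped DMSO with -0.10 ± 0.15. DOT1Li lay below DMSO as well, with -0.31 ± 0.15 (adjusted p = 0.389), and passed the test only with the replicate number as a block (-0.32, adjusted p = 0.0364). Oci-Ly18 expressed CD86 near the limit of detection, with 2, 1 and 9 counts in DMSO, 5, 7 and 3 with DOT1Li, 0, 2 and 0 with EZH2i and 15, 13 and 27 in Combo. Its Combo libraries lay above DMSO, and the rise of 1.98 ± 0.61 in log2 units (edgeR adjusted p = 0.00995) was lost without DMSO replicate 2 (1.55, adjusted p = 0.0659) or Combo replicate 3 (1.63, adjusted p = 0.0781). For EZH2i in Oci-Ly18 the ratio of counts to DMSO was 0.164, with a 95% interval of 0.0178 to 0.735 that covers counting error only.

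Averaged over the lines, CD86 rose in Combo by 1.35 ± 0.17 (edgeR adjusted p = 2.28e-08), a mean of 2 rises and 2 falls. The lines differed in the CD86 change with all 3 treatments (edgeR adjusted p = 0.0365 for DOT1Li, 3.49e-12 for EZH2i and 1.65e-19 for Combo). The DOT1Li difference was lost without Oci-Ly7 DMSO replicate 3, without any SUDHL6 DMSO library or without SUDHL6 DOT1Li replicate 1 or 2 (adjusted p from 0.0511 to 0.125). It was lost as well without both Oci-Ly8 libraries poor in long transcripts (adjusted p = 0.0614).

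CD80 is the second B7 ligand of CD28 and CTLA-4, at chr3:119524293-119559614 on the minus strand, and was scarce in all 4 lines. In Oci-Ly8 it had 26, 12 and 8 counts in DMSO, 17, 8 and 6 with DOT1Li, 25, 13 and 15 with EZH2i and 19, 26 and 29 in Combo, and the groups overlapped. In Oci-Ly18 the counts were 8, 5 and 1 in DMSO, 10, 12 and 14 with DOT1Li, 5, 8 and 13 with EZH2i and 17, 16 and 10 in Combo, so that DOT1Li and Combo lay above DMSO. Oci-Ly7 had no count in DMSO, which allows up to 0.0620 CPM over the group, 0, 2 and 2 with either inhibitor and 4, 1 and 4 in Combo, at least 2.95-fold higher than that floor of 3 counts over the group. SUDHL6 had 0, 0 and 1 counts in DMSO, 3, 1 and 2 with DOT1Li, 5, 9 and 0 with EZH2i and 1, 2 and 5 in Combo. Its ratios to DMSO were 7.06 (95% counting interval 0.856 to 325), 12.7 (1.93 to 537) and 8.22 (1.10 to 365). The averages over 4 lines passed the test for EZH2i (edgeR adjusted p = 0.0143) and Combo (edgeR adjusted p = 0.000533). Over the 3 lines with counts in DMSO, leaving out Oci-Ly7, the log2 change of CD80 was 1.19 with DOT1Li (adjusted p = 0.134), 1.34 with EZH2i (adjusted p = 0.0239) and 1.55 in Combo (adjusted p = 0.00705). CD80 was also called with EZH2i in SUDHL6 and in Combo in Oci-Ly7 and Oci-Ly18 (edgeR adjusted p = 0.0481, 0.0329 and 0.0494). The SUDHL6 call was lost without DMSO replicate 1 or 2, DOT1Li replicate 2 or 3, EZH2i replicate 1 or 2 or Combo replicate 2, and the Oci-Ly7 call without any DMSO library or Combo replicate 1 or 3. The Oci-Ly18 call was lost without any 1 of 10 Oci-Ly18 libraries, all but DMSO replicate 1 and Combo replicate 3. CD80 overlaps the gene TIMMDC1 on the other strand over 798 bases, and TIMMDC1 had 56312 counts over all libraries against 369 for CD80. The strand setting of the counting is not given in the sources used here, so reads of the 2 genes may not be told apart. The fitted Combo change of TIMMDC1 over the 4 lines was -0.22, and the part of the overlap in the CD80 values was not tested.

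CD274 encodes PD-L1, the inhibitory ligand of PD-1, at chr9:5450503-5470566 on the plus strand. Unlike CD86, it was higher than in DMSO in all 4 lines with EZH2i and in Combo, with no overlap of libraries in any of those 8 comparisons. SUDHL6, where it was most abundant, had 5.62, 6.69 and 6.03 CPM in DMSO, 6.54, 5.81 and 5.69 with DOT1Li, 13.7, 12 and 10.5 with EZH2i and 11.2, 15.1 and 12.7 in Combo. The log2 change there was 0.91 ± 0.15 with EZH2i (edgeR adjusted p = 1.03e-05) and 0.96 ± 0.15 in Combo (edgeR adjusted p = 1.24e-06), while DOT1Li overlapped DMSO. The other lines had few counts. Oci-Ly8 went from 4, 2 and 3 in DMSO to 7, 5 and 13 with EZH2i and 12, 14 and 6 in Combo, and Oci-Ly18 from 5, 2 and 1 to 8, 12 and 9 and to 14, 8 and 9. Oci-Ly7 went from 6, 8 and 7 to 11, 10 and 11 and to 9, 9 and 12, and did not pass the test with either. Oci-Ly8 passed it in Combo (edgeR adjusted p = 0.000842) and not with EZH2i (adjusted p = 0.0709), and Oci-Ly18 passed it with both (edgeR adjusted p = 0.00448 for EZH2i and 0.00325 for Combo). Averaged over the lines, CD274 rose by 1.12 ± 0.19 with EZH2i (edgeR adjusted p = 8.90e-06) and by 1.24 ± 0.19 in Combo (edgeR adjusted p = 3.40e-07). The test of a difference between lines gave adjusted p = 0.443 for EZH2i and 0.133 for Combo. Without Oci-Ly18 DMSO replicate 3, the library with 1 count, the calls in Oci-Ly18 were lost (log2 1.32, adjusted p = 0.0767 for EZH2i and 1.27, adjusted p = 0.0596 for Combo).

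ICOSLG, the ligand of ICOS at chr21:44215382-44241446 on the minus strand, was the member called with DOT1Li over the 4 lines. In Oci-Ly7 the DMSO libraries had 0.824, 1.11 and 0.866 CPM, DOT1Li 1.17, 2.51 and 1.83, EZH2i 0.793, 0.628 and 0.985 and Combo 2.85, 3.94 and 4.84. Combo lay above all other groups of Oci-Ly7, with a log2 change of 1.96 ± 0.26 against DMSO (edgeR adjusted p = 4.12e-08). SUDHL6 had 0.992, 1.18 and 1.68 CPM in DMSO and 2.72, 1.65 and 2.95 with DOT1Li, which overlapped. Oci-Ly18 had 2.97, 2.65 and 3.25 in DMSO and 5.48, 4.67 and 4.70 with DOT1Li, which did not overlap. Oci-Ly8 had 3.29, 3.51 and 3.28 in DMSO and 4.13, 5.26 and 3.29 with DOT1Li. Averaged over the lines, ICOSLG rose by 0.71 ± 0.13 with DOT1Li (edgeR adjusted p = 9.26e-05) and by 0.85 ± 0.12 in Combo (edgeR adjusted p = 9.98e-08), against 0.037 ± 0.14 with EZH2i. The lines differed in Combo (edgeR adjusted p = 0.000762), with log2 changes of 0.51, 0.56 and 0.39 in Oci-Ly8, SUDHL6 and Oci-Ly18. Within a line, the DOT1Li rise passed the test in Oci-Ly18 (0.70 ± 0.22, edgeR adjusted p = 0.0390), and that call was lost without any 1 of the 6 DMSO and DOT1Li libraries of Oci-Ly18 (adjusted p from 0.0667 to 0.160). In SUDHL6 it was 0.86 ± 0.28 (adjusted p = 0.0608) and was called by DESeq2 (adjusted p = 0.0402), without both Oci-Ly8 libraries poor in long transcripts (adjusted p = 0.0353) and with the replicate number as a block (adjusted p = 0.0197). In Oci-Ly7 it was 0.93 ± 0.30 (adjusted p = 0.0784) and was called with that block (adjusted p = 0.0209).

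ICOSLG has a near-identical copy in the count table, the row ENSG00000277117 at chr21:5022531-5036771, which its annotation classes as an artifact. Of the 3404 distinct 51-base stretches of that copy, 93.1% also occur in ICOSLG transcripts, so the authors' counting could split reads between them. In SUDHL6 DMSO the copy, ENSG00000277117, had 118 counts against 59 for ICOSLG. The copy rose with DOT1Li by 0.74 ± 0.19 (edgeR adjusted p = 0.00680) and in Combo by 0.72 ± 0.19 (edgeR adjusted p = 0.00112) over the lines, and in Oci-Ly7 Combo by 1.71 ± 0.44 (edgeR adjusted p = 0.00197). In SUDHL6 the copy did not pass the test with DOT1Li (0.36 ± 0.24, edgeR adjusted p = 0.493) or in Combo (0.15 ± 0.24, edgeR adjusted p = 0.667). ICOSLG levels are therefore uncertain.

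CD58, at chr1:116514534-116571039 on the minus strand, rose with EZH2i and in Combo where it was called. Oci-Ly8 had 2.93, 3.25 and 3.95 CPM in DMSO, 4.04, 4.02 and 3.29 with DOT1Li, 6.06, 5.26 and 6.90 with EZH2i and 8.93, 8.79 and 7.24 in Combo. EZH2i and Combo lay above DMSO without overlapping each other, with log2 changes of 0.81 ± 0.17 (edgeR adjusted p = 0.000357) and 1.19 ± 0.16 (edgeR adjusted p = 8.22e-08). In SUDHL6, already the highest line, CD58 went from 22.9, 22.6 and 24.6 CPM in DMSO to 33.9, 35.5 and 35.5 in Combo, a rise of 0.46 ± 0.11 (edgeR adjusted p = 0.000659). In Oci-Ly18 it went from 6.57, 4.79 and 4.05 to 8.20, 8.42 and 8.03 with EZH2i and 6.86, 7.81 and 7.60 in Combo, above DMSO both times, with log2 changes of 0.67 ± 0.15 (edgeR adjusted p = 0.000758) and 0.46 ± 0.15 (edgeR adjusted p = 0.0147). The Combo call in Oci-Ly18 was lost without DMSO replicate 2 or 3 or Combo replicate 2 (adjusted p from 0.0548 to 0.163). Oci-Ly7 had 4.60, 4.30 and 5.46 CPM in DMSO and 4.21, 4.14 and 4.12 in Combo, a log2 change of -0.25 ± 0.16 that did not pass the test. Over the 4 lines the rise was 0.48 ± 0.074 with EZH2i (edgeR adjusted p = 1.17e-06) and 0.47 ± 0.075 in Combo (edgeR adjusted p = 8.02e-07), against 0.059 ± 0.080 with DOT1Li.

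**Figure D4:**
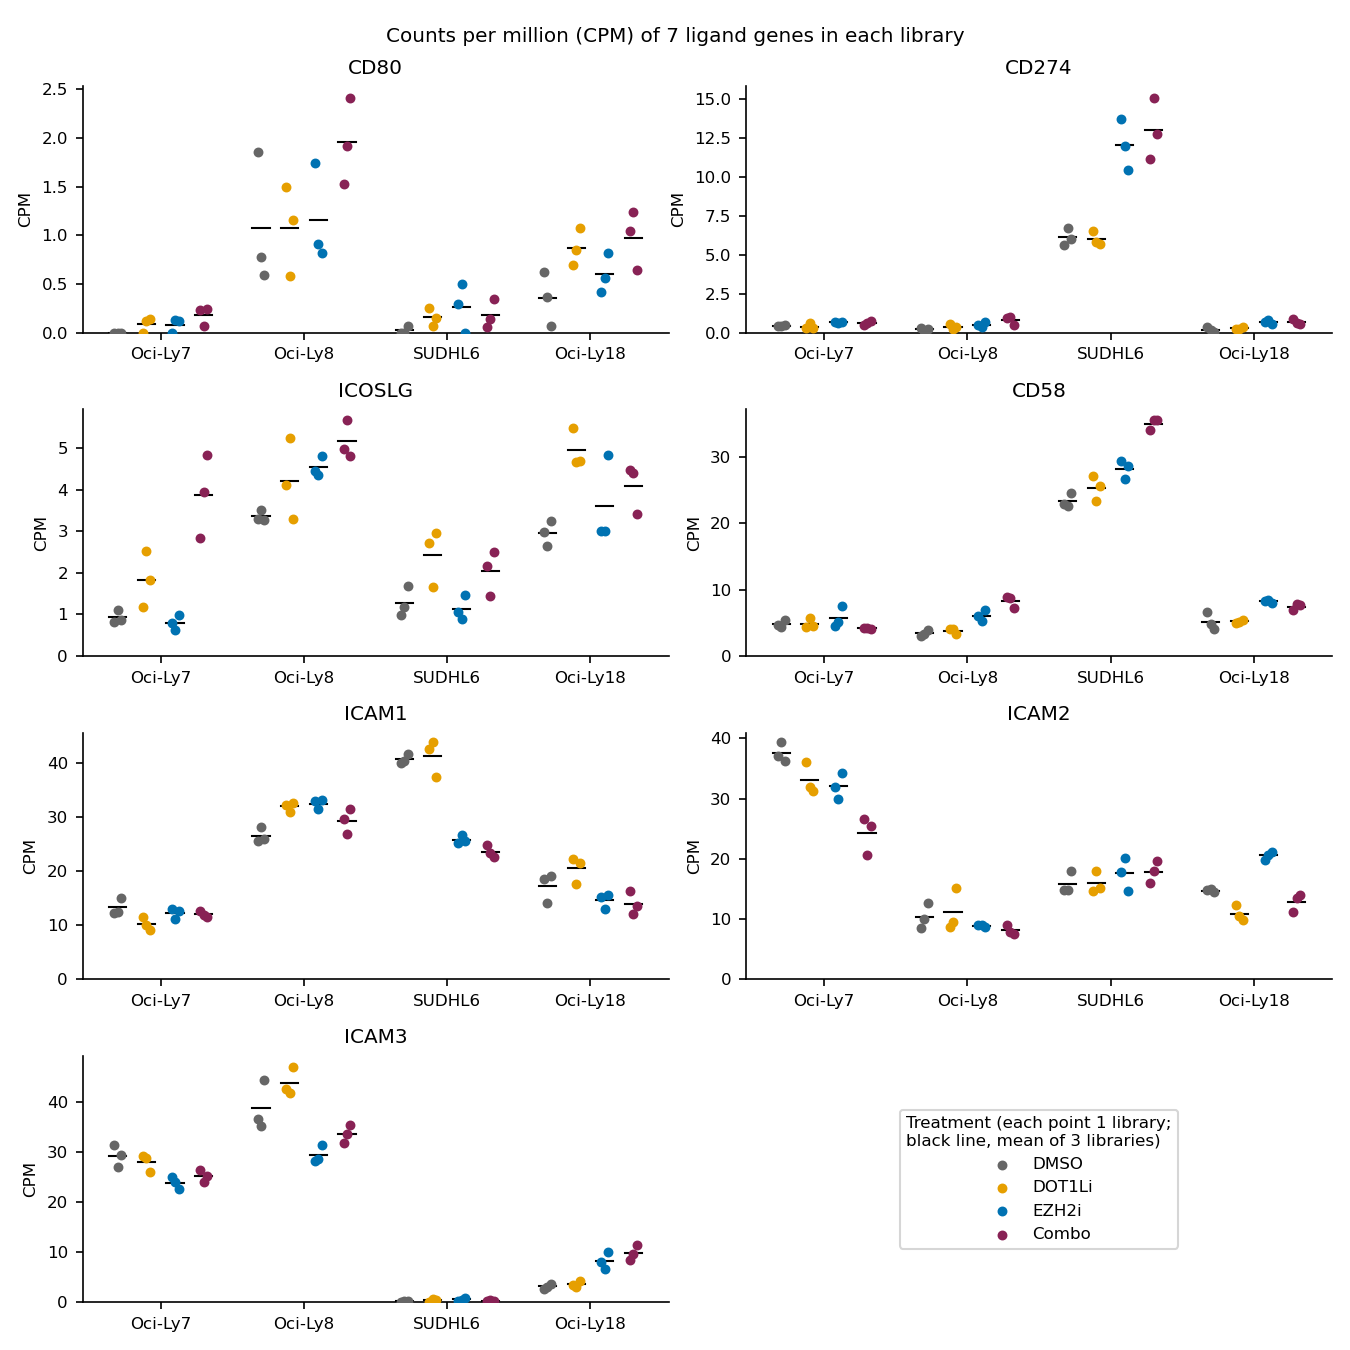
CPM in each library (points) for the 7 tested members other than CD86, by line and treatment. CD274 in SUDHL6 went from at most 6.69 CPM in DMSO to at least 10.5 with EZH2i and 11.2 in Combo, and ICAM1 in SUDHL6 from at least 40.1 to at most 26.8 and 24.8.

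The 3 intercellular adhesion molecules did not move together. ICAM1, at chr19:10271093-10286615 on the plus strand and inducible on activated cells, fell in SUDHL6 from 40.1, 40.5 and 41.7 CPM in DMSO to 25.1, 26.8 and 25.5 with EZH2i and 24.8, 23.3 and 22.7 in Combo. DOT1Li, at 42.6, 43.9 and 37.4, overlapped DMSO. The log2 change was -0.72 ± 0.095 with EZH2i (edgeR adjusted p = 1.06e-07) and -0.91 ± 0.097 in Combo (edgeR adjusted p = 1.50e-10), in the same libraries in which CD86 and CD274 rose. In Oci-Ly7, ICAM1 went from 12.3, 12.5 and 15.1 CPM to 11.5, 9.94 and 9.09 with DOT1Li, a fall of -0.39 ± 0.11 (edgeR adjusted p = 0.0433) that was lost without DMSO replicate 2 or 3 or DOT1Li replicate 2 or 3, and when Oci-Ly7 was fitted alone. In Oci-Ly18 it went from 18.5, 14.1 and 19.1 CPM to 16.2, 12.1 and 13.5 in Combo, a change of -0.37 ± 0.11 (edgeR adjusted p = 0.00564) with overlapping libraries, lost without DMSO replicate 3 or Combo replicate 2. In Oci-Ly8, where the EZH2i libraries lay above DMSO, the change with EZH2i was 0.24 ± 0.097 (adjusted p = 0.0769), and it was called by DESeq2 (adjusted p = 0.0310) and with the replicate number as a block (adjusted p = 0.0222). Over the lines ICAM1 fell by 0.22 with EZH2i (edgeR adjusted p = 0.000617) and by 0.36 in Combo (edgeR adjusted p = 9.02e-08).

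ICAM2, at chr17:64002594-64020634 on the minus strand and typically constitutive, was lower in Combo in the line that had most of it. Oci-Ly7 had 37.0, 39.4 and 36.2 CPM in DMSO and 26.6, 20.7 and 25.4 in Combo, with a log2 change of -0.68 ± 0.12 (edgeR adjusted p = 1.68e-05). In Oci-Ly18 the 2 inhibitors had opposite values: 14.9, 14.9 and 14.4 CPM in DMSO, 12.3, 10.5 and 9.86 with DOT1Li, 19.8, 20.7 and 21.2 with EZH2i and 11.1, 13.4 and 14 in Combo. EZH2i lay above DMSO (0.46 ± 0.14, edgeR adjusted p = 0.0107) and DOT1Li below it (-0.47 ± 0.15, edgeR adjusted p = 0.0440), and the latter call was lost without any 1 of the 6 libraries compared. Combo in Oci-Ly18 had -0.28 ± 0.14 (adjusted p = 0.132), and was called when Oci-Ly18 was fitted alone (adjusted p = 0.0177) and without both Oci-Ly8 libraries poor in long transcripts (adjusted p = 0.0440). In Oci-Ly8 the DMSO libraries had 8.50, 9.94 and 12.7 CPM and the Combo libraries 9.01, 7.90 and 7.49, the highest DMSO value being that of the replicate 3 poor in long transcripts. The Combo change of -0.46 ± 0.16 there (edgeR adjusted p = 0.0209) became -0.26 without that library (adjusted p = 0.255), was lost without Combo replicate 2 or 3 or in a fit of Oci-Ly8 alone, and was -0.23 (adjusted p = 0.258) without both libraries poor in long transcripts. In SUDHL6 ICAM2 was between 14.6 and 20.2 CPM in every library, with no call.

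ICAM3, at chr19:10333776-10339661 on the minus strand and found on resting leukocytes, rose in a line with little of it and fell in the line with most. Oci-Ly18 had 2.74, 3.17 and 3.72 CPM in DMSO, 3.54, 3.12 and 4.31 with DOT1Li, 8.03, 6.66 and 10.2 with EZH2i and 8.57, 9.66 and 11.5 in Combo. EZH2i and Combo lay above DMSO, with log2 changes of 1.34 ± 0.19 (edgeR adjusted p = 2.55e-07) and 1.54 ± 0.18 (edgeR adjusted p = 2.96e-09). Oci-Ly8 had 36.6, 35.3 and 44.5 CPM in DMSO, 28.3, 28.7 and 31.4 with EZH2i and 31.9, 33.7 and 35.4 in Combo. Its EZH2i change of -0.44 ± 0.12 (edgeR adjusted p = 0.00789) was -0.29 without DMSO replicate 3 (adjusted p = 0.140) and -0.28 without both libraries poor in long transcripts (adjusted p = 0.106). Its Combo change of -0.32 ± 0.12 (edgeR adjusted p = 0.0368) was -0.17 without DMSO replicate 3 (adjusted p = 0.351) and -0.14 without both (adjusted p = 0.393), and was lost without Combo replicate 1 or 2, with DESeq2's size factors in edgeR, or in a fit of Oci-Ly8 alone. In SUDHL6 there were 2, 3 and 4 counts in DMSO, and the EZH2i rise (edgeR adjusted p = 0.0388) was lost without any DMSO library or EZH2i replicate 2 or 3. The EZH2i average over 4 lines, 0.53 ± 0.15 (edgeR adjusted p = 0.00640), was 0.42 without SUDHL6 EZH2i replicate 3 (adjusted p = 0.0585). An antisense gene, AC114271.1, overlaps ICAM3 over 2473 bases and had 3299 counts against 11943. Its row ENSG00000274425 changed by 0.028 on the log2 scale in Oci-Ly18 Combo.

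Combo was also compared directly with each inhibitor over the 4 lines. Against DOT1Li, 4 members were called (35.2% of all genes): CD86, CD58 and CD274 were higher, by 1.09 ± 0.16, 0.41 ± 0.076 and 1.01 ± 0.18 on the log2 scale, and ICAM1 was lower, with -0.37 ± 0.053. This CD86 value averaged opposite differences. Oci-Ly8 Combo had 25.9 to 32.2 CPM of CD86, below the 43.2 to 49.1 of DOT1Li. SUDHL6 Combo had 37.7 to 51.3, above the 2.29 to 3.31 of DOT1Li. Oci-Ly18 Combo was higher as well, at few counts, while Oci-Ly7 libraries overlapped. For CD58, Combo lay below DOT1Li in Oci-Ly7 (4.12 to 4.21 against 4.38 to 5.75 CPM) and above it elsewhere. Against EZH2i, 4 were called (25%): CD86 and ICOSLG were higher, by 1.25 ± 0.23 and 0.82 ± 0.12, and ICAM2 and ICAM1 lower, with -0.35 ± 0.070 and -0.14 ± 0.052. That CD86 mean covered opposite changes, with Combo called below EZH2i in Oci-Ly7 and Oci-Ly8 and above it in SUDHL6. The Oci-Ly7 call was lost without EZH2i replicate 3 or Combo replicate 2 (from -0.51 to -0.44). The Oci-Ly8 call was lost without any EZH2i library or Combo replicate 1 or 2 (from -0.50 to -0.41). In Oci-Ly18, Combo had 55 counts against 2 with EZH2i, a ratio of 25.9 (95% counting interval 6.83 to 219). The ICAM1 call against EZH2i (adjusted p = 0.0480) was lost without any 1 of 26 libraries drawn from all 4 lines, and with DESeq2, with DESeq2's size factors in edgeR and with no filter on low counts. Within lines, CD86 in Oci-Ly7 Combo against DOT1Li was -0.38 (adjusted p = 0.0872, or 0.00290 with the replicate number as a block), and ICOSLG in SUDHL6 Combo against EZH2i was 0.81 (adjusted p = 0.0685, or 0.0255 with the block). CD274 and CD58 in Combo differed from EZH2i by 0.12 (95% interval -0.20 to 0.43) and -0.011 (-0.15 to 0.13). The CD58 mean joined lines with opposite differences. CD58 in Combo lay above EZH2i in Oci-Ly8 (7.24 to 8.93 against 5.26 to 6.90 CPM) and SUDHL6 (33.9 to 35.5 against 26.6 to 29.4). It lay below EZH2i in Oci-Ly7 (4.12 to 4.21 against 4.51 to 7.57) and Oci-Ly18 (6.86 to 7.81 against 8.03 to 8.42). The fall in Oci-Ly7 was called, but not without EZH2i replicate 3 or any Combo library. The test of whether Combo departed from the sum of both log2 changes called 0 members by edgeR (0.0507% of all genes) and 0 by DESeq2, with 1 at an unadjusted p under 0.05. The member was CD86, with 1.00 ± 0.37 (95% interval 0.24 to 1.76, adjusted p = 0.503). In SUDHL6 the CD86 value was 0.30, with an interval from -0.59 to 1.18. The 4-line mean also includes Oci-Ly18, whose CD86 counts over the group were 12 in DMSO and 2 with EZH2i.

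Other genes of these pathways were counted from 7 lists, over the 4 lines in Combo. Of the receptors that bind the ligands, 4 of 6 tested rose and 0 fell, among them ITGB2, the beta chain of LFA-1 (0.63 ± 0.086), PDCD1, which encodes PD-1 and had at most 38 counts in any library, and RGMB (0.26 ± 0.059). The ITGB2 change was 2.87 in Oci-Ly18 and between -0.33 and 0.29 in the other lines. ITGAM of this list is also among the myeloid markers. The median of that list was 0.82, or 0.45 with genes that had no count in a group placed at their bound. Of the other B7 and butyrophilin genes, 5 of 8 rose and 0 fell, with BTN3A2 at 0.34 ± 0.055, BTN2A2 at 0.25 ± 0.058 and VSIR, an inhibitory B7 protein, at 1.08 ± 0.27. Of the TNF family costimulatory genes, 3 of 10 rose and 0 fell: TNFRSF14, the receptor of LIGHT and BTLA, by 1.01 ± 0.090, TNFSF4 (OX40 ligand) by 1.06 ± 0.14 and TNFSF13B (BAFF) by 1.36 ± 0.51.

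Of the other adhesion molecules, 6 of 12 rose and 1 fell, with ITGA4 at 0.50 ± 0.067 and CD47, the signal against phagocytosis, at 0.23 ± 0.031. Of the NF-kB subunits and feedback genes, 2 of 11 rose and 4 fell: RELB had -0.62 ± 0.068, NFKBIB -0.43 ± 0.055 and TRAF1 0.68 ± 0.11. Of the interferon signalling genes upstream of PD-L1, 7 of 15 rose and 3 fell. STAT3 rose by 0.26 ± 0.035, and the transcription factor IRF8 had -0.49 ± 0.070, with 1.2 in SUDHL6 and between -1.36 and -0.82 in the other lines. Of the activation genes of the germinal centre light zone, 5 of 11 rose and 1 fell, with NR4A1 at 0.85 ± 0.10, EGR2 at 1.86 ± 0.25 and TRAF3 at 0.42 ± 0.061. TRAF3 was at 1.22 in Oci-Ly7 and 0.85 in Oci-Ly18 but at -0.21 in Oci-Ly8 and -0.18 in SUDHL6, and NR4A1 was at -0.0054 in Oci-Ly7. The share of all genes called in Combo was 46.4%. DOT1Li called 1, 0, 1, 2, 1, 2 and 0 genes of the 7 lists in the order above, against 10.3% of all genes. All of these rose but the 1 NF-kB gene. EZH2i called 2, 3, 2, 3, 4, 7 and 3, against 28.2% of all genes, and 0, 2, 0, 1, 3, 3 and 0 of these fell.

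The genes whose pattern was most like that of CD86 over the 16 group means, after each line's mean was subtracted, were KRCC1 (Pearson r = 0.964), APCDD1 (r = 0.952) and TMEM38A (r = 0.940), among 11191 protein-coding genes. This order holds for log2 CPM with a prior count of 2. With a prior count of 0.5, APCDD1 came first (r = 0.925), then KRCC1 (r = 0.920) and CCS (r = 0.918), and TMEM38A held rank 5 (r = 0.895). In SUDHL6, KRCC1 went from 26.8 CPM in DMSO to 52.5 in Combo, APCDD1 from 32.1 to 97.8 and TMEM38A from 6.13 to 18. Without the SUDHL6 groups the coefficients were 0.875, 0.889 and 0.797. The group means of a line share the line mean that was subtracted, and the coefficients are a description.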

How the data were processed

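Whole-number gene counts of 48 RNA-seq libraries were deposited by the authors in a single table. STAR, DESeq2 and the build GRCh38 (hg38) are named, with no role, per the submitters' processing notes. The kit is stranded per the labels' protocols, while the sources used here do not give the strand setting or annotation of the counting. From the deposited counts, edgeR 4.0.16 (R 4.3.3, limma 3.58.1) fitted 16 groups with TMM scaling, filterByExpr, robust quasi-likelihood tests and Benjamini-Hochberg adjustment over 17749 genes, with 32 residual degrees of freedom. Standard errors are the log2 change divided by the root of F. The fit was tested on simulated data. Refits without 1 library kept the gene list and trended dispersion of all libraries and tested the averages, the differences between lines and that library's own line. DESeq2 1.42.0, its size factors in edgeR, no filter, a replicate block, each line alone and omission of 2 Oci-Ly8 libraries were alternatives. Same-numbered libraries deviated together weakly (r over 0.1 in 17 of 72 pairs, and in all 3 pairs for 3 of 24 pairs of groups: Oci-Ly7 DOT1Li and Combo, Oci-Ly8 DMSO and DOT1Li, and SUDHL6 EZH2i and Combo). The numbers were not taken as pairs over the series, and blocked values are given beside several results. Intervals on ratios of low counts and floors of 3 counts cover counting error only. Text names all 9 members, up to 3 called genes per list with the smallest adjusted p in Combo, and the 3 genes most like CD86. Some genes these rules would name are not reported here. The members and lists were chosen with earlier results of these data known.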

Additional observations from a re-analysis of the deposited data

Results flagged for a closer look

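The change against DMSO differed between the 4 lines for 13 pairs of member and treatment (edgeR adjusted p under 0.05), which are given here by treatment. With DOT1Li these were CD86 (adjusted p = 0.0365) and ICAM1 (adjusted p = 0.0156). The ICAM1 difference was lost without Oci-Ly7 DMSO replicate 3 or DOT1Li replicate 3 (adjusted p = 0.0735 and 0.0821 at the ends of the range). With EZH2i they were CD86 (adjusted p = 3.49e-12), CD58 (adjusted p = 0.0353), ICAM1 (adjusted p = 4.12e-06), ICAM2 (adjusted p = 0.00662) and ICAM3 (adjusted p = 3.91e-08). The CD58 difference was lost without any 1 of 11 libraries: Oci-Ly7 DMSO replicate 3 and EZH2i replicate 2, Oci-Ly8 DMSO replicates 1 and 2 and EZH2i replicates 1 and 3, SUDHL6 DMSO replicate 3 and EZH2i replicate 2, and Oci-Ly18 DMSO replicates 2 and 3 and EZH2i replicate 2 (adjusted p from 0.05003 to 0.0938). It was lost as well with no filter on low counts (adjusted p = 0.0707). In Combo they were CD86 (adjusted p = 1.65e-19), CD58 (adjusted p = 2.14e-05), ICAM1 (adjusted p = 2.35e-06), ICAM2 (adjusted p = 0.00769), ICAM3 (adjusted p = 6.36e-09) and ICOSLG (adjusted p = 0.000762). CD274 and CD80 did not pass this test with any of the 3 treatments.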

How the results depend on the processing

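Of 272 tests of a member or other single value, 99 passed the threshold and 70 of those passed it under every alternative, with no reversal of direction. The number of members called moved as follows. Over the 4 lines DOT1Li called 1 member, 2 with no filter on low counts, 2 without both Oci-Ly8 libraries poor in long transcripts, 2 with DESeq2 and 1 to 3 leaving out each library in turn, and non-additivity 0, or 1 (CD86) with no filter. DOT1Li in Oci-Ly7 called 1 member, 0 with no filter, 0 with the line alone, 3 with the replicate block and 0 to 2 without each library. In SUDHL6 it called 1, 2 with the block, 2 without both Oci-Ly8 libraries, 0 with the line alone, 2 with DESeq2 and 0 to 1 without each library, and in Oci-Ly18 2, or 0 to 2 without each library. EZH2i in Oci-Ly7 called 0, 1 with the block, 2 without both Oci-Ly8 libraries, 2 with the line alone and 1 with DESeq2, and in SUDHL6 5, 3 with the line alone and 3 to 5 without each library. Combo called 5 in Oci-Ly8, 3 without both libraries, 3 with the line alone and 3 to 6 without each library, and 6 in Oci-Ly18, or 2 to 6. The differences between lines with DOT1Li went from 2 to 1 without both Oci-Ly8 libraries and 0 to 2 without each. The replicate block ended 1 call, CD80 with EZH2i in SUDHL6, and added 15. Each of the 48 libraries correlated best with its own number, a hint from the data and not the design. The cause of these shifts was not tested. CD80, PDCD1LG2, CD274 outside SUDHL6, CD86 in Oci-Ly18 and ICAM3 in SUDHL6 had few counts, and depth limits their values.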
